A study of Mus musculus with 12 samples.

Results

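The signals of macrophage, dendritic cell and complement genes were compared in pancreatic islets of WT, PPARg2KO, ob/ob and POKO mice. The group was a list of 41 genes: components and receptors of complement, macrophage surface molecules and their growth factor, Fc receptors and their adaptors, macrophage effector genes, genes of all leukocytes, Toll-like receptors, dendritic cell and co-stimulatory genes, and 2 cytokines. Probes were matched through the accession that the array design gives them, and each gene was read from its brightest probe. Of the 41 genes, 40 had a probe, out of 17305 named genes on the array. No probe carried an accession of Cd68, a lysosomal glycoprotein of macrophages. Scanner software called 25 of the 40 genes well above background on all 12 arrays, 13 on 1 to 11 arrays, and 2, Cd163 and Cd80, on none.

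Each array held islet RNA pooled from 3 to 4 female mice on a C57BL/6 x Sv129 background, and there were n = 3 arrays for each genotype. All mice ate chow and were 4 weeks old per the labels. A slightly higher age stands in the text of the paper. WT carried neither mutation, and PPARg2KO lacked the PPARg2 isoform in the whole animal. The ob/ob mice (labelled OB) lacked leptin and are hyperphagic and obese. POKO mice (labelled DKO) lacked both leptin and PPARg2. After collagenase digestion the islets were picked by hand and kept in culture overnight. An array is thus a mixture of endocrine cells, blood vessel cells, exocrine and connective tissue cells, and whatever leukocytes lay within or on the islets. All genes of an acinar, a duct, and a fibroblast and stellate cell list were well above background on every array. The p-values measure the spread between such pools.

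Macrophages are the main leukocytes of a healthy islet. They depend on the growth factor Csf1 and its receptor Csf1r, take up particles through scavenger and Fc receptors, and make C1q, which starts the classical complement pathway on bound antibody. Complement then runs through C3, which is cleaved on the target, and factor B (Cfb) and factor D (Cfd) amplify this step. Fc receptors bind the constant part of antibodies and mostly signal through the adaptor chain Fcer1g. Dendritic cells carry antigen to T cells and show co-stimulatory molecules such as Cd80 and Cd86. Several of the listed genes are not limited to myeloid cells: Ptprc and Laptm5 are used by all leukocytes, and Fcgr2b, Cd86 and Tlr7 also by B cells.

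Between 54.3% (WT replicate 2) and 64.9% (ob/ob replicate 3) of the spots of an array were well above background, and 0 spots were saturated. Pparg gave a log2 signal of 8.90 ± 0.07 (SD, n = 3) in WT, 9.31 ± 0.67 in ob/ob, 7.10 ± 0.44 in PPARg2KO and 6.89 ± 0.41 in POKO, so it was lower where the labels give the deletion. Where the probe lies relative to the deleted exon is not given in the sources used here. Lep was not well above background on any array and checks nothing. The islet hormone genes Ins1 and Gcg were well above background on all 12 arrays, and so were all 7 genes of an acinar list, at a mean log2 signal of 17.96 to 18.16. Each of 3 slides held 1 array of every genotype, and the position on the slide was the same for a genotype on every slide, so position and genotype cannot be told apart.

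PPARg2KO replicate 2 stood apart from the other 2 PPARg2KO arrays in leukocyte genes. The mean log2 signal over the 40 myeloid genes was 6.80 there, against 5.46 and 5.74 on the other PPARg2KO arrays. Over 11 T cell genes it was 6.46 against 3.68 and 3.39, and over 10 B cell genes 6.94 against 3.77 and 4.28. This array enters the spread of every comparison, and results are therefore also given without it.

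Most of the myeloid genes had a higher signal in islets of leptin-deficient mice, with or without PPARg2. A gene was called past the criteria at an adjusted p-value of at most 0.05 (limma, Benjamini-Hochberg over 41174 probes) and a change of at least 1 in either direction on the log2 scale. In ob/ob vs. WT 31 of 40 genes were higher, against 43.9% of all named genes. The protein tyrosine phosphatase Ptprc (CD45), the lysosomal protein Laptm5, the chitinase-like gene Chil6 and the complement gene C1qa rose, that is 4 of 40 genes, against 4.51% of the 17305 named genes, and 0 fell, against 2.17%. At an unadjusted p-value under 0.05, 20 genes were higher, against 16.1% of all named genes, and 0 lower, against 20.9%. The median log2 fold change over the 40 genes was 1.03, and it was -0.06 over all named genes. With the 6 genes that had no reading well above background in WT set to the bound on their fold, and 3 genes without such a reading in both genotypes left out, it was 1.09. After normexp background correction it was 0.26, and 2 genes, Ptprc and Laptm5, were past the criteria, against 1.3% of all named genes. By slide the median difference between the ob/ob and the WT array was 1.93, 1.095 and 0.44. Without PPARg2KO replicate 2, 14 genes were past the criteria, where 4.88% of all named genes rose. Without WT replicate 1, WT replicate 2, ob/ob replicate 2 or ob/ob replicate 3, Chil6 alone was, where 0.231% to 0.595% of all named genes rose. On pooled islets more cells of a type and more RNA per cell cannot be told apart.

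In POKO vs. WT 35 of 40 genes were higher, against 40.8% of all named genes, with a median log2 fold change of 1.67 against -0.06 over all named genes. With 7 genes set to their bound and 2 left out the median was 1.38, and after normexp it was 0.47 with 0 genes past the criteria. By slide the median difference was 1.93, 2.17 and 0.61. Only Chil6 rose past the criteria, 1 of 40 genes against 0.179% of all named genes. At an unadjusted p-value under 0.05, 25 genes were higher, against 8.71% of all named genes, and 0 lower, against 8.45%. All 3 POKO arrays lay above all 3 WT arrays for 29 of the 40 genes, against 11.9% of all named genes, and the same held for ob/ob over WT for 21 genes, against 13.8%. With the slide as a block 0 genes were past the criteria in POKO vs. WT, where 0.0116% of all named genes rose. Without PPARg2KO replicate 2 there were 11, where 1.83% of all named genes rose. Of the other 11 arrays 7, each left out alone, gave 0, where 0.0173% to 0.104% of all named genes rose.

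The comparison of both leptin-deficient genotypes with both lean ones used all 12 arrays. Here 13 of 40 genes rose, against 2.92% of all named genes, and 0 fell, against 0.48%. In all 33 genes were higher, against 43.6%, of which 27 had an unadjusted p-value under 0.05, against 14.2%. The 13 were C1qa, C1qb, Csf1r, Fcer1g, Fcgr1, Fcgr2b, Fcgr3, Tyrobp, Mpeg1, Chil6, Ptprc, Laptm5 and Cd86. The median log2 fold change was 1.104, and by slide it was 1.81, 0.89 and 0.50. With the slide as a block 7 of the 13 genes remained past the criteria, namely C1qa, Fcgr1, Fcgr3, Mpeg1, Chil6, Ptprc and Laptm5. The median after normexp was 0.34, with 2 genes called, Mpeg1 and Ptprc, against 0.491% of all named genes. Without PPARg2KO replicate 2 there were 21 genes, where 3.21% of all named genes rose, and 20 without WT replicate 3, where 3.95% did. Each of the other 10 arrays left out gave 2 to 8 genes, where 0.566% to 3.13% of all named genes rose. All 6 leptin-deficient arrays lay above all 6 lean arrays for Chil6, Laptm5 and Tlr2, 3 of 40 genes against 2.15% of all named genes.

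**Figure D1:**
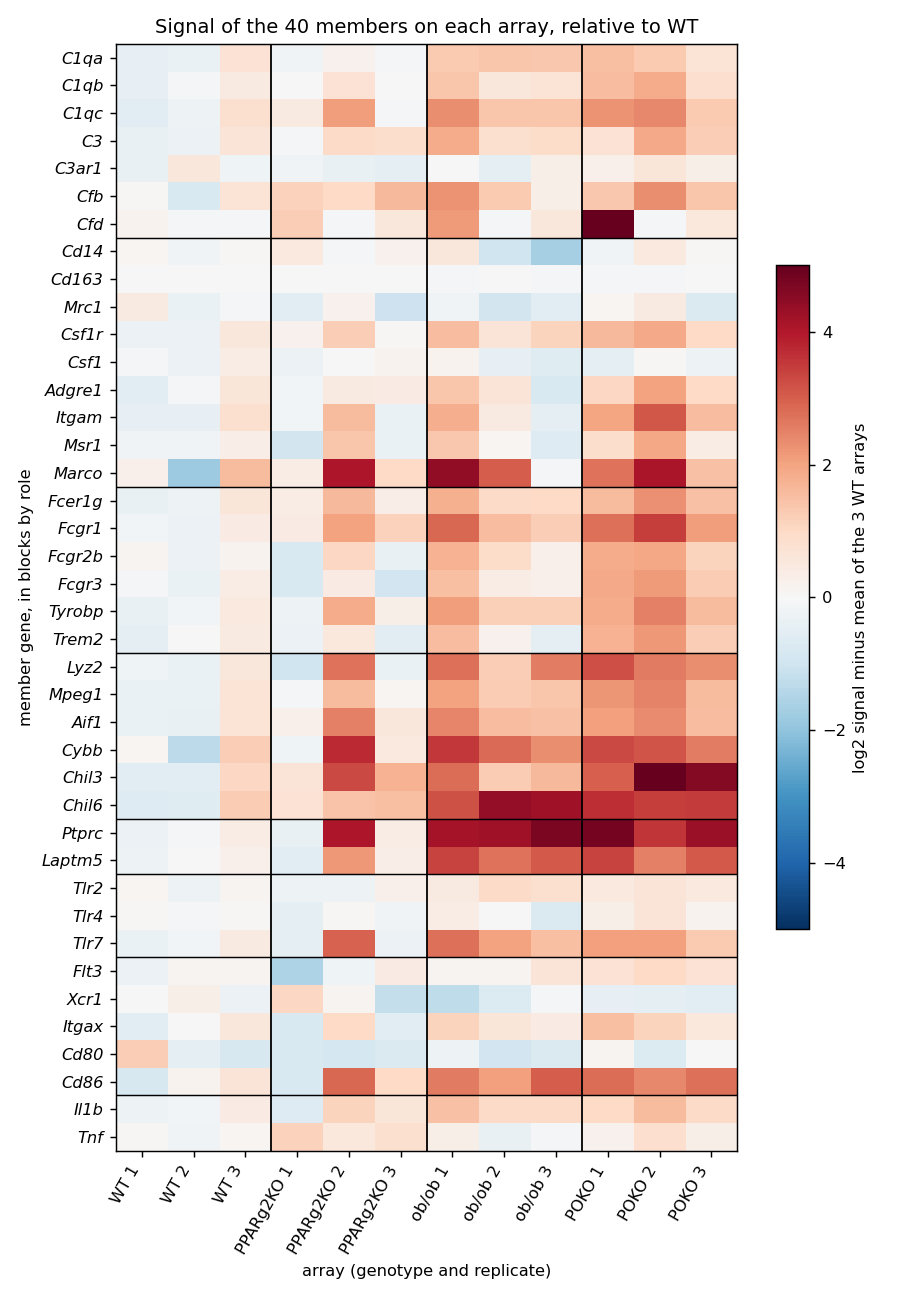
Signal of each of the 40 genes (rows, in blocks by role) on each of the 12 arrays (columns), as log2 signal minus the mean of the 3 WT arrays, red for higher and blue for lower, with the colour scale ending at 5 in both directions. The 6 ob/ob and POKO columns are mostly red, PPARg2KO replicate 2 is red for the leukocyte genes, and Cd163 and Csf1 stay near white.

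**Figure D2:**
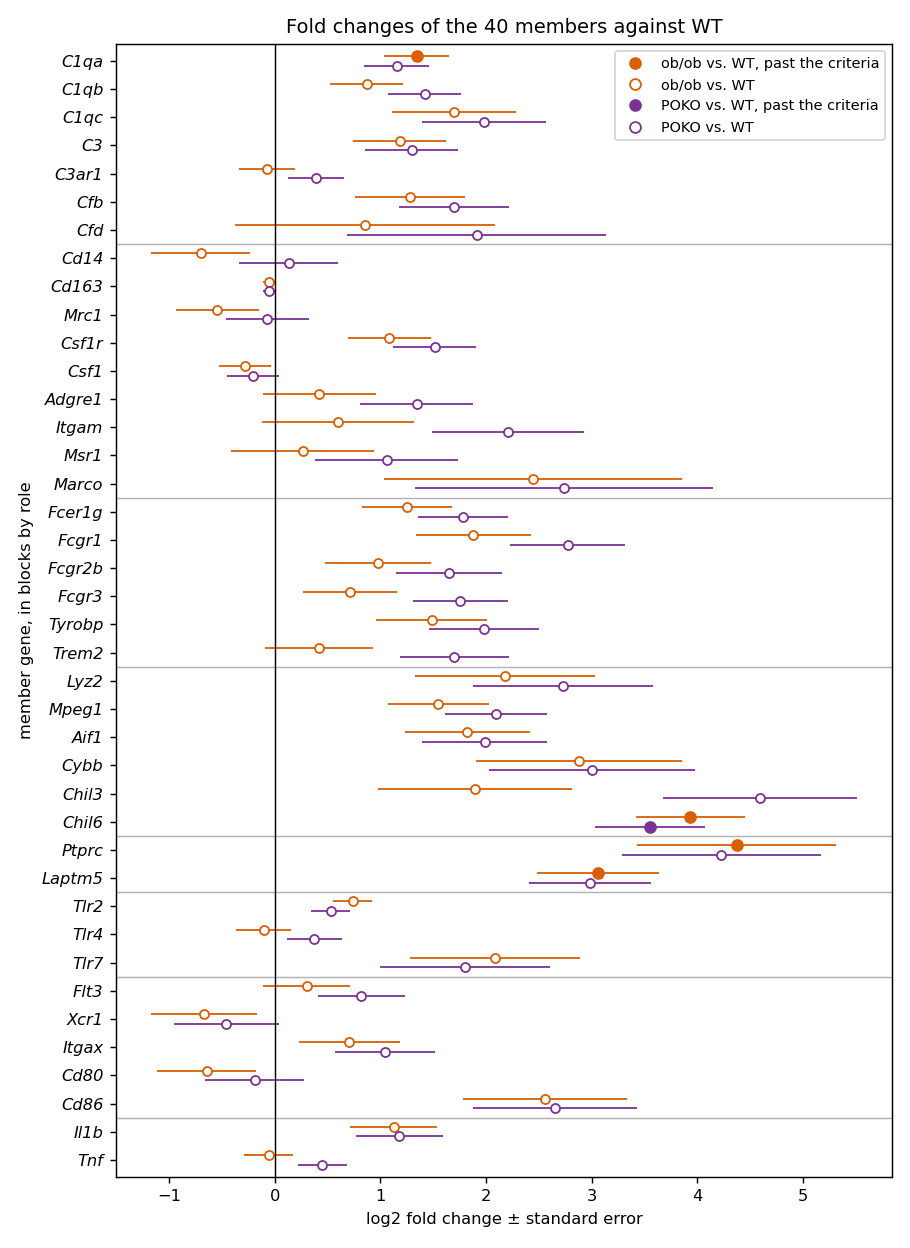
Log2 fold change with its standard error (horizontal axis) of the 40 genes (vertical axis) in ob/ob and in POKO, each against WT, from limma with n = 3 arrays per genotype, where filled points are past the criteria (C1qa, Chil6, Ptprc and Laptm5 for ob/ob, and Chil6 alone for POKO). Cd163, Cd80, Cd86, Cfd, Chil3, Chil6, Itgam, Mrc1 and Tlr7 were well above background on no WT array and stand at fitted values that are not measured folds.

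The promoters of the listed genes, whether or not they rose, were read in the RefSeq table of GRCm38.p6. They were searched for the core of the binding motif of PU.1, a transcription factor that myeloid cells and B cells need. The table held an entry for 31 of the 41 genes, and the window was the 250 bases before the start. The letters GAGGAA, on either strand, were found in 13 of 31 windows, against 25.9% of 27025 genes.  The C/EBP-type core TTNNGNAA was found in 16 windows against 40.3% of all genes, and the AP-1 motif TGACTCA in 3 against 5.16%. Among the genes past the criteria in leptin-deficient vs. lean, GAGGAA lay in the windows of C1qb, Ptprc, Laptm5, Fcgr1 and Fcgr3. Fcer1g, Fcgr2b, Mpeg1 and Chil6 had a window without it, and C1qa, Csf1r, Tyrobp and Cd86 had no entry. A match is a run of letters and not a measured binding site. The windows with a match are shown so that its place before the start can be seen, and that of Chil6, which passed the criteria in the most comparisons, is shown as one without. Capitals mark GAGGAA or its reverse complement TTCCTC, and each run is written 5′ to 3′ on the strand of the gene.
C1qb, chr4:136886201-136886450, minus strand: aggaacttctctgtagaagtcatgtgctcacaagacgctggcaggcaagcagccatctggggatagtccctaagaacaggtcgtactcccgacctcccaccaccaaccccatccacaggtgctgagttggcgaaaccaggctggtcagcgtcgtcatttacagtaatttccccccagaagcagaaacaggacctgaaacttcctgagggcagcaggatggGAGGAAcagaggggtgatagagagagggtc
Ptprc, chr1:138175306-138175555, minus strand: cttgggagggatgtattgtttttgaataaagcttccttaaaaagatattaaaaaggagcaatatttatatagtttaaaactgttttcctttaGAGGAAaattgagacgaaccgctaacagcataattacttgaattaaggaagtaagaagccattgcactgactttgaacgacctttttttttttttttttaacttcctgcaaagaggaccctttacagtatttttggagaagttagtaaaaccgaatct
Laptm5, chr4:130913066-130913315, plus strand: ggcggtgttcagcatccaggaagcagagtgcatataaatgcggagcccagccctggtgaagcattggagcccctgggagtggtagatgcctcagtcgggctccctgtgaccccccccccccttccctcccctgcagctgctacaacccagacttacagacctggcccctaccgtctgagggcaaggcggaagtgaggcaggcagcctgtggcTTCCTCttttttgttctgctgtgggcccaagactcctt
Fcgr1, chr3:96293970-96294219, minus strand: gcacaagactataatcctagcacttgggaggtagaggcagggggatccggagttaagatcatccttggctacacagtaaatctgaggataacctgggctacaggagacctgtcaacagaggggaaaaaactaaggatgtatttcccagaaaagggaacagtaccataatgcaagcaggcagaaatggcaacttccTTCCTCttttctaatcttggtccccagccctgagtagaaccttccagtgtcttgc
Fcgr3, chr1:171059404-171059653, minus strand: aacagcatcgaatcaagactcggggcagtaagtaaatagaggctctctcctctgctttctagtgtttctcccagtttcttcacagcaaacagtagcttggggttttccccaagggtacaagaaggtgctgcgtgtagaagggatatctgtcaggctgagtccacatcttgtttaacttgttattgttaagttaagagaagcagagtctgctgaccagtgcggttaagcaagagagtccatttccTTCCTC
Chil6, chr3:106406183-106406432, minus strand: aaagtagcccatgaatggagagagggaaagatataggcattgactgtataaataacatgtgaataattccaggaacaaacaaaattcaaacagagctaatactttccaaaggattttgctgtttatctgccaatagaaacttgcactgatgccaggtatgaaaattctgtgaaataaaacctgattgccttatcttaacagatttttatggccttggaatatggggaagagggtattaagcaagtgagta
The match began 6 bases before the start in Fcgr3, 30 in C1qb, 38 in Laptm5, 55 in Fcgr1 and 158 in Ptprc. For Ptprc and Fcgr3 the table held 2 entries each, and the first is shown.

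Both genes of all leukocytes had among the largest fold changes of the group. The log2 signal of Ptprc was 4.39, 4.58 and 5.06 in WT, 4.29, 8.71 and 5.05 in PPARg2KO, 8.84, 8.91 and 9.39 in ob/ob and 9.47, 8.25 and 8.98 in POKO. All leptin-deficient arrays lay above all WT arrays, and PPARg2KO replicate 2 lay among the leptin-deficient ones. Ptprc rose in ob/ob vs. WT by 4.37 ± 0.94 (log2 fold change ± SE, adjusted p = 0.0292) and in leptin-deficient vs. lean by 3.63 ± 0.67 (adjusted p = 0.0220), and its POKO vs. WT value of 4.23 had an adjusted p of 0.0951. Laptm5, which lies in the lysosomal membrane and takes part in the turnover of antigen receptors, gave 5.11, 5.35 and 5.61 in WT, 4.78, 7.53 and 5.68 in PPARg2KO, 8.73, 8.08 and 8.43 in ob/ob and 8.72, 7.87 and 8.42 in POKO. For Laptm5 the 6 lean and the 6 leptin-deficient arrays did not overlap. It rose by 3.06 ± 0.58 in ob/ob vs. WT (adjusted p = 0.0241) and by 2.70 ± 0.41 in leptin-deficient vs. lean (adjusted p = 0.0152), and its POKO vs. WT value was 2.98 (adjusted p = 0.0795). A second Laptm5 probe gave 3.30 in ob/ob vs. WT (adjusted p = 0.0216). One further Ptprc probe gave 3.87 (adjusted p = 0.027), and another, well above background on 2 arrays, gave 1.75 (adjusted p = 0.072).

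**Figure D3:**
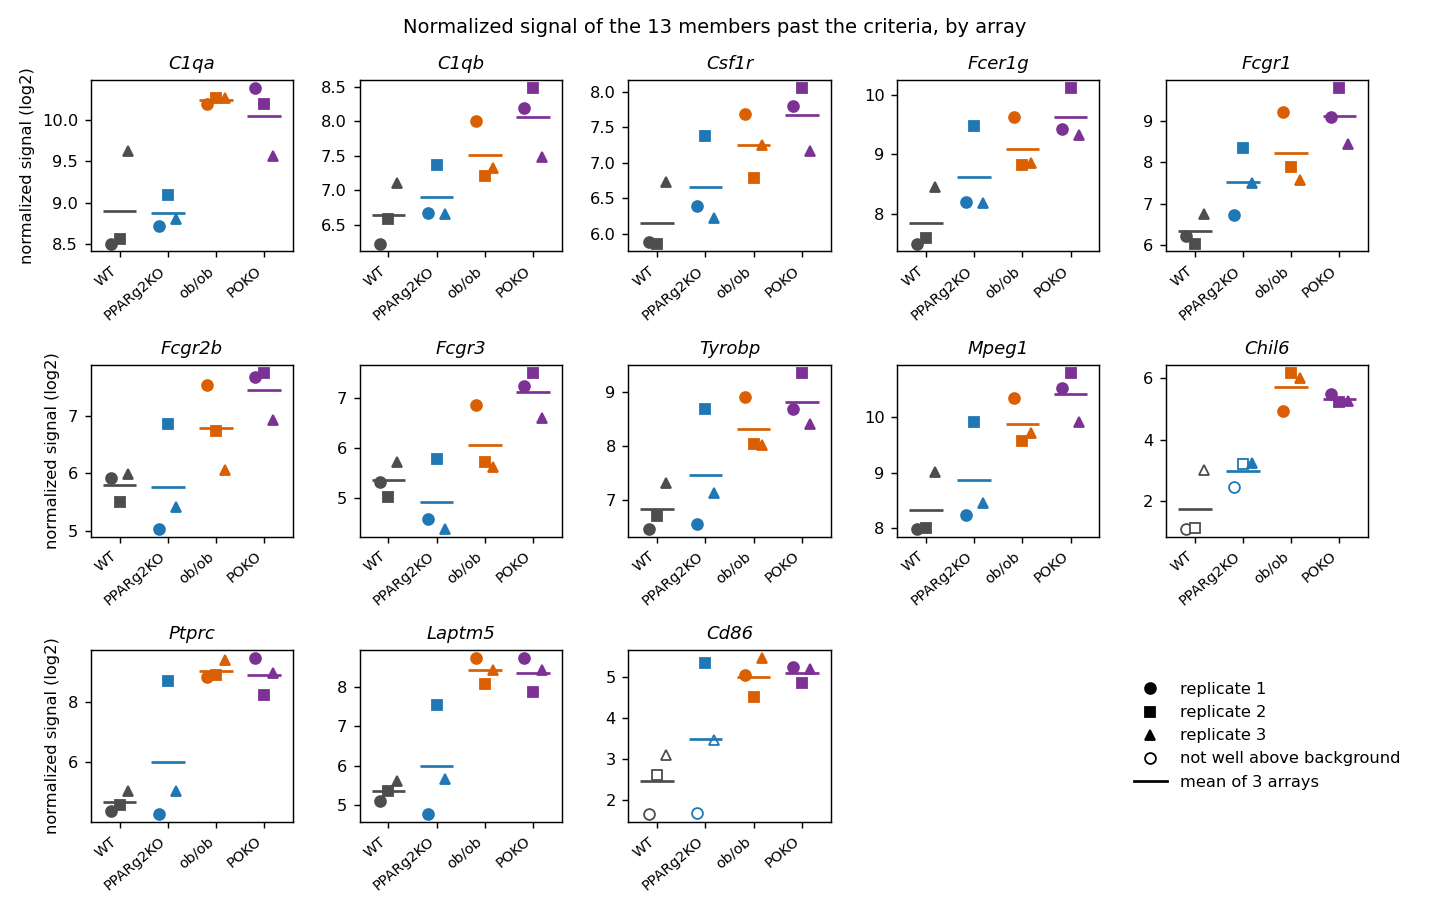
Normalized log2 signal (vertical axis) by genotype of the 13 genes past the criteria in any comparison, with 1 point per array, the shape giving the replicate number, open points not well above background, and a line at the mean of the 3 arrays. In Laptm5 and Chil6 every ob/ob and POKO point lies above every WT and PPARg2KO point, and in Ptprc, Cd86 and Tyrobp the square of PPARg2KO replicate 2 lies among the ob/ob and POKO points.

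Of 7 complement genes 1, C1qa, rose in ob/ob vs. WT, against 4.51% of all named genes, 0 in POKO vs. WT, against 0.179%, and 2, C1qa and C1qb, in leptin-deficient vs. lean, against 2.92%. The median log2 fold changes of the 7 genes were 1.18, 1.42 and 1.02. C1qa, the A chain, gave 8.51, 8.56 and 9.63 in WT, 8.72, 9.10 and 8.80 in PPARg2KO, 10.19, 10.27 and 10.27 in ob/ob and 10.39, 10.20 and 9.57 in POKO. The ob/ob arrays lay close together and above all lean arrays, while POKO replicate 3 was just below WT replicate 3. C1qa rose by 1.34 ± 0.31 in ob/ob vs. WT (adjusted p = 0.0323) and by 1.26 ± 0.22 in leptin-deficient vs. lean (adjusted p = 0.0192), and in POKO vs. WT its value was 1.15 (adjusted p = 0.123). For the B chain, C1qb, the signals were 6.22, 6.59 and 7.10 in WT, 6.67, 7.36 and 6.65 in PPARg2KO, 8.01, 7.20 and 7.32 in ob/ob and 8.20, 8.49 and 7.48 in POKO. C1qb rose in leptin-deficient vs. lean, by 1.02 ± 0.24 (adjusted p = 0.0377), and its values against WT were 0.87 in ob/ob (adjusted p = 0.123) and 1.42 in POKO (adjusted p = 0.113).

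The third chain, C1qc, ranged from 6.51 to 7.88 in WT and from 8.45 to 9.38 in ob/ob, and its log2 fold change of 1.69 in ob/ob vs. WT had an adjusted p of 0.0872. In the gene table of GRCm38.p6 C1qb, C1qc and C1qa are neighbours, with 0 protein-coding genes between them. C3, the central component, had a log2 fold change of 1.18 in ob/ob vs. WT (adjusted p = 0.103), and Cfb, which forms its convertase, of 1.28 (adjusted p = 0.129). Neither passed the test. C3ar1, the receptor for the C3a fragment, had -0.07 in ob/ob vs. WT. Cfd, the protease that cleaves factor B and is made by fat cells, gave 6.57 on POKO replicate 1 and between 1.17 and 3.39 on the other 11 arrays, and was well above background on no WT array, so no fold is given.

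Of the 6 Fc receptor and adaptor genes 0 rose in ob/ob vs. WT or POKO vs. WT, against 4.51% and 0.179% of all named genes, and 5 rose in leptin-deficient vs. lean, all except Trem2, against 2.92%. Their medians in these comparisons were 1.11, 1.77 and 1.37. Fcgr1, the high-affinity receptor for IgG, gave 6.21, 6.03 and 6.75 in WT, 6.72, 8.33 and 7.49 in PPARg2KO, 9.20, 7.87 and 7.56 in ob/ob and 9.08, 9.80 and 8.43 in POKO. All leptin-deficient arrays lay above all WT arrays, and so did 2 of the 3 PPARg2KO arrays. Its rise in leptin-deficient vs. lean was 1.73 ± 0.38 (adjusted p = 0.0319), with 1.88 in ob/ob vs. WT (adjusted p = 0.0543) and 2.77 in POKO vs. WT (adjusted p = 0.0805). Fcgr3, a low-affinity activating receptor, gave 5.32, 5.03 and 5.73 in WT, 4.59, 5.78 and 4.39 in PPARg2KO, 6.86, 5.73 and 5.63 in ob/ob and 7.24, 7.50 and 6.61 in POKO. Here the 3 POKO arrays and ob/ob replicate 1 were the highest, and the other ob/ob arrays overlapped with WT. Fcgr3 rose by 1.46 ± 0.32 in leptin-deficient vs. lean (adjusted p = 0.0313), with 0.71 in ob/ob vs. WT (adjusted p = 0.307) and 1.76 in POKO vs. WT (adjusted p = 0.117).

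The inhibitory receptor Fcgr2b gave 5.92, 5.49 and 5.98 in WT, 5.03, 6.85 and 5.41 in PPARg2KO, 7.54, 6.73 and 6.06 in ob/ob and 7.67, 7.75 and 6.93 in POKO. Its lowest ob/ob array lay just above the highest WT array. Fcgr2b rose by 1.33 ± 0.35 in leptin-deficient vs. lean (adjusted p = 0.0489), and of its further probes one gave 1.59 (adjusted p = 0.040) and another 1.41 (adjusted p = 0.066). Fcer1g, the signalling chain of the activating Fc receptors, gave 7.49, 7.59 and 8.46 in WT, 8.20, 9.47 and 8.17 in PPARg2KO, 9.62, 8.82 and 8.85 in ob/ob and 9.43, 10.13 and 9.33 in POKO. Its rise in leptin-deficient vs. lean was 1.13 ± 0.30 (adjusted p = 0.0483). Tyrobp, the related adaptor of Trem2 and of other myeloid receptors, gave 6.48, 6.71 and 7.33 in WT, 6.57, 8.68 and 7.15 in PPARg2KO, 8.91, 8.04 and 8.01 in ob/ob and 8.68, 9.36 and 8.41 in POKO, and rose by 1.42 ± 0.37 in leptin-deficient vs. lean (adjusted p = 0.0461). For Fcer1g and Tyrobp all leptin-deficient arrays lay above all WT arrays, and PPARg2KO replicate 2 lay among them. Trem2, the lipid receptor that signals through Tyrobp, had log2 fold changes against WT of 0.42 in ob/ob and 1.70 in POKO (adjusted p = 0.154).

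The 6 effector genes of macrophages had median log2 fold changes of 2.04 in ob/ob vs. WT, 2.86 in POKO vs. WT and 2.25 in leptin-deficient vs. lean, and 1, 1 and 2 of them rose, against 4.51%, 0.179% and 2.92% of all named genes. With Chil6 and Chil3 at their bounds the first pair of medians was 1.85 and 2.21. Chil6, a secreted chitinase-like protein, was well above background on no WT array and on all ob/ob and POKO arrays. Its log2 signals were 1.12, 1.14 and 3.03 in WT, 2.48, 3.19 and 3.25 in PPARg2KO, 4.93, 6.16 and 6.00 in ob/ob and 5.46, 5.22 and 5.25 in POKO. Every leptin-deficient array lay above every lean one. Against the lowest signals well above background on the WT arrays, the rise of Chil6 was at least 3.69-fold for ob/ob (fitted log2 fold change 3.93, adjusted p = 0.0125) and at least 2.82-fold for POKO (3.55, adjusted p = 0.0398). In leptin-deficient vs. lean the fitted log2 fold change of Chil6 was 3.13 ± 0.37 (adjusted p = 0.0095). Of the lean arrays only 1, a PPARg2KO array, had it well above background, so this is not a measured fold. Over the other settings the fitted value ranged from 0.33 to 3.50.

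Mpeg1, the pore-forming protein perforin-2 of phagocytes, gave 7.98, 7.99 and 9.02 in WT, 8.23, 9.91 and 8.44 in PPARg2KO, 10.35, 9.58 and 9.71 in ob/ob and 10.54, 10.81 and 9.91 in POKO. It rose by 1.55 ± 0.34 in leptin-deficient vs. lean (adjusted p = 0.0317), with 1.55 in ob/ob vs. WT (adjusted p = 0.0652) and 2.09 in POKO vs. WT (adjusted p = 0.1002). A second Mpeg1 probe gave 1.21 in leptin-deficient vs. lean (adjusted p = 0.052). The next 3 genes had large fold changes that did not pass the test. Lysozyme, Lyz2, gave 3.89, 3.75 and 4.67 in WT, 3.10, 6.80 and 3.79 in PPARg2KO, 6.87, 5.34 and 6.66 in ob/ob and 7.33, 6.71 and 6.44 in POKO, with a log2 fold change of 2.22 in leptin-deficient vs. lean (adjusted p = 0.0507). Cybb, the catalytic subunit of the phagocyte NADPH oxidase, gave 3.10, 1.69 and 4.22 in WT, 2.78, 6.74 and 3.48 in PPARg2KO, 6.53, 5.82 and 5.31 in ob/ob and 6.31, 6.15 and 5.57 in POKO, with 2.88 in ob/ob vs. WT (adjusted p = 0.0818). Lyz2 was well above background on 2 WT and 2 PPARg2KO arrays, and Cybb on 1 WT and 2 PPARg2KO arrays. Both folds thus rest in part on readings not well above background. Aif1, an actin-bundling protein of macrophages, gave 5.67, 5.65 and 6.69 in WT, 6.24, 8.55 and 6.56 in PPARg2KO, 8.47, 7.57 and 7.46 in ob/ob and 8.06, 8.37 and 7.55 in POKO, with 1.82 in ob/ob vs. WT (adjusted p = 0.0725). In all 3 the highest lean array was PPARg2KO replicate 2. Chil3, a relative of Chil6 that lies 1 protein-coding gene away, gave 1.03, 1.03 and 2.60 in WT, 2.20, 4.86 and 3.27 in PPARg2KO, 4.35, 2.82 and 3.16 in ob/ob and 4.53, 7.75 and 6.15 in POKO. No WT array had it well above background, and its bound for POKO, at least 5.03-fold, did not pass the test (adjusted p = 0.0841).

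Among the 9 macrophage surface molecules and their growth factor, 0 rose in ob/ob vs. WT or POKO vs. WT, against 4.51% and 0.179% of all named genes, and 1, Csf1r, rose in leptin-deficient vs. lean, against 2.92%. Their median log2 fold changes were 0.27, 1.06 and 0.64, and the POKO vs. WT median was 0.60 with genes below background in WT at their bound. Csf1r, the receptor for the macrophage growth factor, gave 5.88, 5.86 and 6.73 in WT, 6.39, 7.37 and 6.23 in PPARg2KO, 7.68, 6.79 and 7.25 in ob/ob and 7.79, 8.06 and 7.16 in POKO, and rose by 1.05 ± 0.28 (adjusted p = 0.0474). A second Csf1r probe gave 1.28 (adjusted p = 0.022), and another, well above background on 1 array, gave -0.15. Its ligand Csf1 had -0.28 in ob/ob and -0.21 in POKO, both against WT. Marco, a scavenger receptor of resident macrophages, gave 5.63, 3.55 and 6.94 in WT, 5.74, 9.40 and 6.36 in PPARg2KO, 9.81, 8.39 and 5.28 in ob/ob and 8.07, 9.44 and 6.83 in POKO. The WT arrays alone spanned 3.55 to 6.94, the genotypes overlapped, and the log2 fold change of 2.45 ± 1.41 in ob/ob vs. WT had an adjusted p of 0.270.

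The other surface molecules did not pass the test in any comparison. Against WT, Adgre1 (F4/80) had log2 fold changes of 0.42 in ob/ob and 1.35 in POKO, and Msr1, a scavenger receptor, of 0.27 and 1.06. For both genes the adjusted p was between 0.253 and 0.818. Itgam (CD11b) was well above background on no WT array, 1 ob/ob array and 2 POKO arrays, and its signal did not give a bound above 1. Cd14, a co-receptor for lipopolysaccharide, gave 12.67, 11.11 and 10.45 in ob/ob against 11.95 to 12.23 in WT, a log2 fold change of -0.70 (adjusted p = 0.333). Without ob/ob replicate 1 Cd14 was called as fallen in ob/ob vs. WT, where 605 of 17305 named genes fell. The mannose receptor Mrc1 lay between 2.17 and 3.66 on all arrays, and the haemoglobin scavenger receptor Cd163 was not well above background anywhere.

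Of the 3 Toll-like receptors, Tlr2, which senses bacterial lipoproteins, had the smallest adjusted p-values without reaching the fold criterion. It gave 9.05 to 9.46 in WT, 9.05 to 9.57 in PPARg2KO, 9.75 to 10.26 in ob/ob and 9.78 to 9.94 in POKO, so that lean and leptin-deficient arrays did not overlap. The fit gave 0.74 ± 0.18 in ob/ob vs. WT (log2 fold change ± SE, adjusted p = 0.0383) and 0.68 in leptin-deficient vs. lean (adjusted p = 0.0250). Tlr7, an endosomal sensor of single-stranded RNA, gave 2.71, 2.89 and 3.47 in WT, 2.52, 5.98 and 2.73 in PPARg2KO, 5.77, 5.04 and 4.52 in ob/ob and 5.09, 5.06 and 4.34 in POKO. No WT array had it well above background, and the bound was at least 2.46-fold for ob/ob (adjusted p = 0.114) and at least 2.02-fold for POKO, without passing the test. Tlr4, the lipopolysaccharide receptor, had log2 fold changes against WT of -0.10 in ob/ob and 0.38 in POKO.

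Of the 5 dendritic cell and co-stimulatory genes 1, Cd86, rose in leptin-deficient vs. lean, against 2.92% of all named genes. Cd86, a ligand of CD28 on T cells, gave 1.65, 2.61 and 3.09 in WT, 1.68, 5.34 and 3.46 in PPARg2KO, 5.06, 4.50 and 5.47 in ob/ob and 5.25, 4.86 and 5.20 in POKO. It was well above background on all leptin-deficient arrays and on 1 lean array, PPARg2KO replicate 2. The fitted log2 fold change in leptin-deficient vs. lean was 2.09 ± 0.55 (adjusted p = 0.0469), which is not a measured fold. Over the other settings it ranged from 0.13 to 2.55. Against WT the bound was at least 2.30-fold for ob/ob (adjusted p = 0.0619) and at least 2.44-fold for POKO (adjusted p = 0.146), neither past the test. A second Cd86 probe gave 1.94 in leptin-deficient vs. lean (adjusted p = 0.043). Itgax (CD11c), an integrin of dendritic cells, had 0.71 in ob/ob and 1.04 in POKO against WT, and Flt3, the receptor for the growth factor of dendritic cells, had 0.30 and 0.82. Xcr1, a chemokine receptor of cross-presenting dendritic cells, was lower, at -0.67 and -0.46. None of these 3 passed the test, and Cd80 was not well above background on any array.

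Neither cytokine passed the test. Il1b, which beta cells respond to with loss of function, gave 6.34 to 6.98 in WT, 5.94 to 7.71 in PPARg2KO, 7.54 to 8.04 in ob/ob and 7.53 to 8.17 in POKO, with a log2 fold change of 0.97 in leptin-deficient vs. lean (adjusted p = 0.0646). Tnf had log2 fold changes against WT of -0.06 in ob/ob and 0.45 in POKO, and its 3 PPARg2KO arrays, at 6.14 to 6.76, lay above the WT arrays, at 5.43 to 5.72.

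The loss of PPARg2 was compared on both backgrounds, and 0 of the 40 genes passed the criteria on either, as did 0% of all named genes. In POKO vs. ob/ob 33 of 40 genes were higher, against 52.5% of all named genes, their median was 0.46, and the smallest adjusted p was 0.531. At an unadjusted p-value under 0.05, 3 genes were higher, against 6.65% of all named genes, and 0 lower. These were Chil3 at 2.70, Trem2 at 1.29 and Fcgr3 at 1.05. In PPARg2KO vs. WT 27 genes were higher, against 46.8% of all named genes, the median was 0.41, with medians by slide of 0.12, 1.31 and -0.23, and the smallest adjusted p was 0.457. There 3 genes, Cfb at 1.26, Tnf at 0.82 and Chil6, which was too dim for a bound above 1, were higher at an unadjusted p-value under 0.05, against 4.55% of all named genes, and without PPARg2KO replicate 2 the median was -0.00. In both PPARg2-null genotypes against both intact ones 36 genes were higher, against 48.9% of all named genes, with a median of 0.45. Without PPARg2KO replicate 2 this median was 0.11, the lowest with any array left out. Again 0 genes passed the criteria, and 4 were higher at an unadjusted p-value under 0.05, against 2.26% of all named genes. These were Tnf at 0.66, Chil3 at 2.30, Fcgr1 at 1.04 and Cfb at 0.84.

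The difference between POKO and ob/ob, less that between PPARg2KO and WT, tested whether the loss of PPARg2 differed between the backgrounds. Its median over the 40 genes was 0.02, the smallest adjusted p was 0.343, and 1 gene, Fcgr3 at 1.49, had an unadjusted p-value under 0.05 with a positive value, against 8.67% of all named genes. In POKO vs. PPARg2KO 35 genes were higher, against 45.5% of all named genes, with a median of 1.13, 0 genes past the criteria and 20 higher at an unadjusted p-value under 0.05, against 5.58% of all named genes. The corresponding comparison of ob/ob with PPARg2KO had 34 genes higher, against 45.4%, a median of 0.64, and 0 past the criteria with a smallest adjusted p of 0.080. There 6 genes were higher at an unadjusted p-value under 0.05, against 10.9% of all named genes, and 1, Tnf at -0.88, was lower. Of all named genes 0% rose past the criteria in either. Without PPARg2KO replicate 2, Fcgr3, Lyz2, Ptprc and Laptm5 were past the criteria in POKO vs. PPARg2KO, where 0.693% of all named genes rose, and Ptprc, Laptm5 and Tlr7 in ob/ob vs. PPARg2KO, where 0.942% did.

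Further genes of the same pathways were counted on lists of related genes. Of 24 other macrophage and monocyte genes 4 rose in ob/ob vs. WT, against 4.51% of all named genes, with a median log2 fold change of 0.70. Among them were Sirpa, which binds the don't-eat-me signal CD47, at 1.34 (adjusted p = 0.0284), the lysosomal protease Ctss at 2.00 (adjusted p = 0.0361) and the scavenger receptor Stab1 at 1.52 (adjusted p = 0.0371). Of 14 other dendritic cell genes 5 rose, against 4.51%, among them the maturation marker Cd83 at 2.14 (adjusted p = 0.0262), the integrin Itgae at least 4.36-fold (adjusted p = 0.0276) and the transcription factor Irf4 (adjusted p = 0.0276), which was too dim for a bound above 1. These 3 are also used by lymphocytes. Of 28 other complement genes 0 rose in ob/ob vs. WT, against 4.51%, with a median of 0.20. C4b, the classical pathway component that follows C1, rose in leptin-deficient vs. lean by 1.22 (adjusted p = 0.0315), where 2.92% of all named genes rose.

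Of 17 other cytokine and mediator genes 3 rose in ob/ob vs. WT, against 4.51% of all named genes: the chemokine Ccl4 by 1.65 (adjusted p = 0.0233), Casp1, which cleaves pro-IL-1β, by 1.54 (adjusted p = 0.0454), and Il12a at least 2.47-fold (adjusted p = 0.0244). The median of that list was -0.16. Of 14 other Toll-like receptor pathway genes 2 rose, against 4.51%: Unc93b1, the chaperone of the endosomal receptors, by 1.27 (adjusted p = 0.0206), and Tlr1, the partner of Tlr2, at least 3.61-fold (adjusted p = 0.0239). Of 11 genes of alternative macrophage activation Pdcd1lg2 rose (adjusted p = 0.0154) and Mgl2 fell (adjusted p = 0.0125) by the fit. Of all named genes 4.51% rose and 2.17% fell. Mgl2 was not well above background anywhere, and Pdcd1lg2 was so on no WT array and too dim elsewhere for a bound above 1. Pdcd1lg2 was the only gene of these 6 lists past the criteria in POKO vs. WT (adjusted p = 0.0328), where 0.179% of all named genes rose.

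Genes of other cell types moved along the same genotypes. Of 11 T cell genes 8 rose in ob/ob vs. WT, against 4.51% of all named genes, with a median log2 fold change of 4.08, or 2.55 with 6 genes at their bound. Among them the T cell receptor chain Cd3d had 6.42 (adjusted p = 0.0309), the kinase Lck 2.51 (adjusted p = 0.0311) and Cd5 3.86 (adjusted p = 0.0321). Of 10 B cell genes 5 rose, against 4.51%, with a median of 2.96, or 2.63 with 3 genes at their bound. Among them were the B cell receptor component Cd79b at 5.70 (adjusted p = 0.0371), Fcer2a at least 4.01-fold (adjusted p = 0.0308) and Fcrla at least 6.17-fold (adjusted p = 0.0379). Of 6 NK cell genes 0 rose in ob/ob vs. WT, against 4.51%, and 1, Klrd1, rose in leptin-deficient vs. lean, against 2.92%, by 3.43 (adjusted p = 0.0442). The summed signal of the T cell genes was 459 to 481 in WT, 299 to 1667 in PPARg2KO, 1193 to 3306 in ob/ob and 691 to 2280 in POKO, and that of the 40 myeloid genes was 9390 to 14412, 13819 to 17973, 13291 to 28413 and 19136 to 30302. Of the T cell genes 3 to 5 were well above background on the WT arrays and 10 to 11 on the leptin-deficient ones. Ptprc, Laptm5, Cd86, Tlr7 and Fcgr2b are also used by lymphocytes. The part of lymphocyte RNA, NK cells included, in their values and in those of the other listed genes was not tested.

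Of 10 neutrophil genes 0 rose in ob/ob vs. WT or POKO vs. WT, against 4.51% and 0.179% of all named genes. Their mean log2 signal was 2.62 to 2.97 in WT, 2.61 to 5.28 in ob/ob and 4.58 to 6.99 in POKO, highest on POKO replicate 2, which also had the highest Chil3 and Itgam. S100a9, a calcium-binding protein abundant in neutrophils, had a log2 fold change of 7.48 in POKO vs. WT (adjusted p = 0.0745). In ob/ob vs. WT 4.51% of all named genes rose and 2.17% fell, to be set beside the counts that follow. Of 8 endothelial genes 4 rose in ob/ob vs. WT, with a median of 1.18, among them Cdh5 at 1.17, Esam at 1.46 and Tie1 at 1.19. None of 7 fibroblast and stellate cell genes rose, and their mean log2 signal was higher on ob/ob replicate 1 (10.97) than on the other ob/ob arrays (9.13 and 8.97), as was that of the myeloid genes (7.20 against 6.48 and 6.37). Of 6 adipocyte genes 1 rose, Fabp4 at 1.31 (adjusted p = 0.0449), which macrophages also make. Of 4 erythroid genes 2 rose, Hba-a1 at 3.07 and Alas2 at 2.83, of 5 mast cell genes 1 fell, Cpa3, which was not well above background on any array, and of 6 duct genes 2 fell, Krt19 at -1.57 (adjusted p = 0.0173) and Cftr at -1.33 (adjusted p = 0.0436). Among 7 acinar, 6 beta cell and 5 alpha cell genes 0 passed the criteria for ob/ob vs. WT. The part of these cell types in the values of the myeloid genes was not tested.

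**Figure D4:**
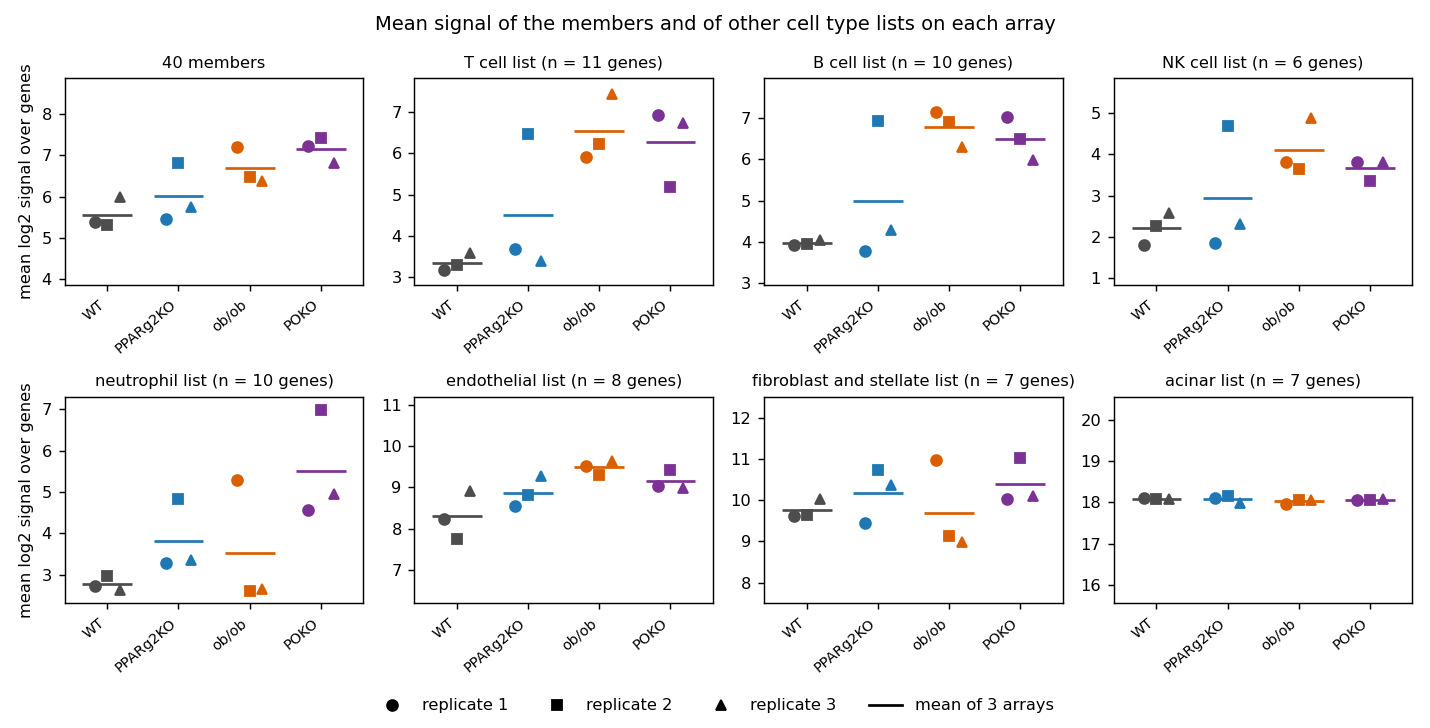
Mean log2 signal over the genes of a list (vertical axis) by genotype for the 40 myeloid genes and 7 lists of other cell types, with 1 point per array, the shape giving the replicate number and a line at the mean of 3 arrays. The T, B and NK cell lists are high on all ob/ob and POKO arrays and on PPARg2KO replicate 2, the neutrophil list is highest on POKO replicate 2, and the acinar list lies between 17.96 and 18.16 on every array.

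The number of genes past the criteria changed with single arrays. In ob/ob vs. WT 1 gene, Chil6, remained without WT replicate 1, WT replicate 2, ob/ob replicate 2 or ob/ob replicate 3, where 0.231% to 0.595% of all named genes rose. Without WT replicate 3 there were 12 genes past the criteria, where 7.6% of all named genes rose, against 4.51% with all arrays. In POKO vs. WT 0 genes remained without WT replicate 1 or 2, ob/ob replicate 2 or 3, or any of the POKO replicates, where 0.0173% to 0.104% of all named genes rose. In leptin-deficient vs. lean there were 2 genes without WT replicate 2 or POKO replicate 1, 3 without WT replicate 1, ob/ob replicate 2 or ob/ob replicate 3, 4 without PPARg2KO replicate 1, POKO replicate 2 or POKO replicate 3, 7 without ob/ob replicate 1, 8 without PPARg2KO replicate 3 and 20 without WT replicate 3. Of all named genes 3.95% rose without WT replicate 3, and 0.566% to 3.13% without any other of these arrays. Chil6 and Laptm5 were past the criteria in this comparison whichever array was left out. The median log2 fold change over the 40 genes stayed between 0.83 and 1.24 in ob/ob vs. WT and between 1.43 and 1.88 in POKO vs. WT.

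**Figure D5:**
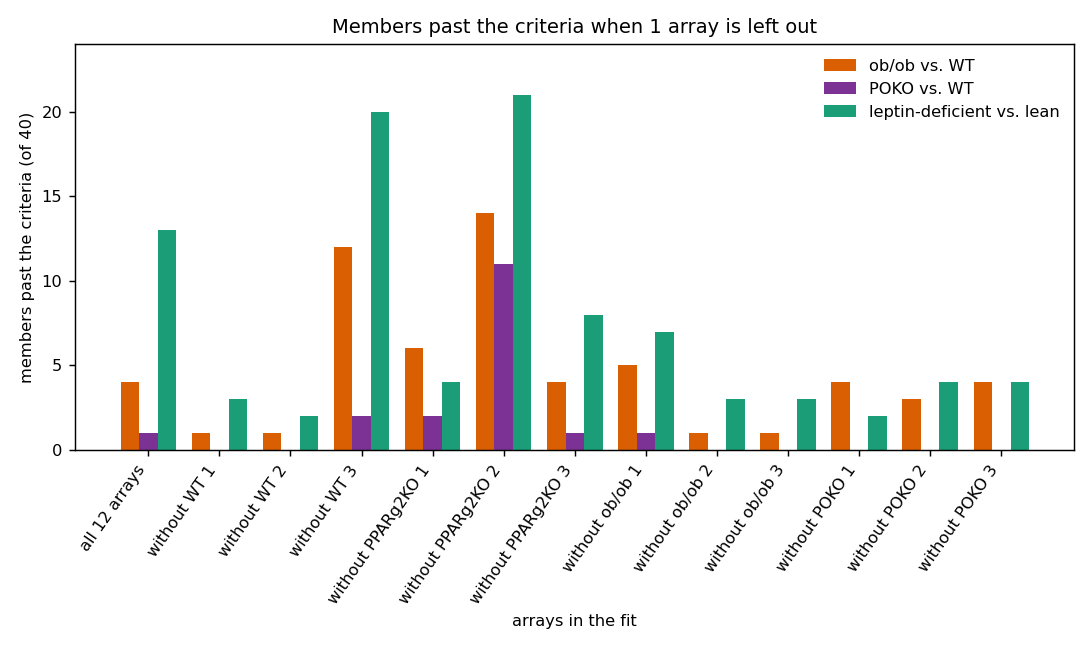
Number of the 40 genes past the criteria (vertical axis) with all 12 arrays and with each array left out in turn (horizontal axis), for ob/ob against WT, POKO against WT and leptin-deficient against lean. Without PPARg2KO replicate 2 the counts are 14, 11 and 21, against 4, 1 and 13 with all arrays, and without most other arrays the leptin-deficient vs. lean count is 8 or fewer, with 20 without WT replicate 3 as the exception. Of all named genes 4.88%, 1.83% and 3.21% rose without PPARg2KO replicate 2, against 4.51%, 0.179% and 2.92% with all arrays.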

How the data were processed

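The deposited values are processed signal intensities of Agilent 4x44K arrays in 1 colour (Cy3), which per the file headers the authors obtained with Agilent Feature Extraction 10.1.1.1. That software subtracts background and does not scale between arrays. The authors' own normalized values, on the log2 scale, were deposited as well and served as an alternative. No columns of the authors' fold changes were used.

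Signals of 43379 spots (1639 control spots left out) were quantile-normalized over 12 arrays and put on the log2 scale in R 4.3.3. A total of 919 spots called outliers were dropped before spots of a probe were averaged. limma 3.58.1 (lmFit, eBayes) was fitted with genotype as the only factor, since the authors' block on the array cannot be fitted with 1 sample an array. Benjamini-Hochberg adjustment ran over all 41174 probes, of which 25097 had a symbol through RefSeq accessions. Where no array of the dimmer genotype had a probe well above background, its fold is a lower bound against the lowest signal well above background (or the probe's own signal, where higher), and where that bound is under 1 no fold is given. For medians with bounds such a gene counts as 0. The code was tested on simulated data. Values are comparable between arrays for 1 probe, not between probes. The number of arrays limits the precision.

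The 41 genes and all lists were chosen with earlier results of these data known. Values on each array are given for genes past the criteria in any comparison and for the 10 of largest change in ob/ob vs. WT among those well above background on all arrays of the brighter genotype, and C1qc and Chil3 were added after their values were seen. From other lists at most 3 genes are named. Cd14, Tlr2 and Il1b, and in the other lists C4b, Klrd1 and S100a9, were also picked after their values were seen.

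Replicate numbers match slides. Deviations from the genotype means of same-numbered arrays correlated at -0.13 to 0.18 (median 0.03, 18 pairs, 4 over 0.1). Those of differently numbered arrays of other genotypes correlated at -0.18 to 0.16 (median -0.04, 36 pairs, 3 over 0.1). Alternatives were scaling to the 75th percentile, normexp with an offset of 50, a filter keeping the 24305 probes that every array of at least 1 genotype had well above background, outlier spots kept, a fit on the compared genotypes alone, the slide as a block, array weights, the mean over probes of a gene, the authors' values, calls by adjusted p alone, and leaving out each array. normexp was run on the median signal because the mean signal planned for it was not among the columns.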

Additional observations from a re-analysis of the deposited data

How the results depend on the processing

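Against main counts of 4 genes called in ob/ob vs. WT, 1 in POKO vs. WT and 13 in leptin-deficient vs. lean, there were 6, 3 and 16 after scaling to the 75th percentile, which moved the median over all probes for ob/ob vs. WT from -0.08 to -0.19. Of all named genes 5.51%, 0.953% and 3.92% rose after this scaling, against 4.51%, 0.179% and 2.92% in the main fit. The counts were 2, 0 and 2 after normexp, where 1.3%, 0% and 0.491% of all named genes rose. There the median log2 fold changes over the 40 genes were 0.26, 0.47 and 0.34 (0.35 in POKO vs. PPARg2KO). With the filter on dim probes the counts were 10, 6 and 19, where 7.4%, 1.91% and 4.3% of the 13118 named genes kept rose. Of the genes called there, Chil6, Cd86, Cybb and Lyz2 were kept only through ob/ob and POKO, and Chil3 only through POKO. The filter thus let these genes in through the genotypes where they were high, and their calls under it are no separate support. The filter also gave 1 in ob/ob vs. PPARg2KO, where 0.48% rose. A fit on the compared genotypes alone gave 2 in ob/ob vs. WT (Ptprc and Laptm5) and 3 in POKO vs. WT, where 1.28% and 1.09% of all named genes rose. The replicate block gave 4, 0 and 7, where 4.28%, 0.0116% and 2.54% of all named genes rose, and changed no other count. Same-numbered arrays share a slide, and 4 of 18 pairs of them had a correlation over 0.1 (median 0.03). Of 36 pairs with different numbers 3 did (median -0.04). Array weights gave 15, 23 and 20, where 9%, 4.17% and 4.39% of all named genes rose. They also gave 4 in POKO vs. ob/ob and 6 in ob/ob vs. PPARg2KO, where 1.42% and 2.64% rose. The cause of these shifts was not tested. The authors' values, outlier spots kept, the mean over probes and no fold criterion gave 4 or 5, 1, and 12 to 14. Of all named genes 4.51%, 0.295% and 2.9% rose with the authors' values and 4.5%, 0.179% and 2.92% with outlier spots kept. Without a fold criterion 6.48%, 0.191% and 5.64% were higher. No such share was counted for the mean over probes.

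Leaving out each array gave 1 to 14 genes in ob/ob vs. WT, 0 to 11 in POKO vs. WT and 2 to 21 in leptin-deficient vs. lean. In POKO vs. PPARg2KO it gave 0 to 4 (4 without PPARg2KO replicate 2, where 0.693% of all named genes rose), and in ob/ob vs. PPARg2KO 0 to 3. Without PPARg2KO replicate 2 the 3 were all higher in ob/ob, where 0.942% of all named genes rose. Without ob/ob replicate 1 they were Chil6, higher, and Cd14 and Tnf, lower, where 1.39% of all named genes rose and 359 of 17305 fell. Without PPARg2KO replicate 3 there was 1, Chil6, where 0.78% rose. The other 4 comparisons gave 0. Over all settings of each called gene, 225 fold changes kept direction and side of the threshold, 140 kept the direction without passing and 0 reversed. These genes were picked by the main fit and the settings reuse the same arrays, so the tally is no separate support. Chil6 passed in ob/ob vs. WT in 19 of 21 settings, Laptm5 and Ptprc in 17 and C1qa in 14. In leptin-deficient vs. lean Chil6 and Laptm5 passed in 19 of 20 settings and Csf1r in 6. Signal over background limits the 9 genes that no WT array had well above it: Chil6, Cd86 and Tlr7 have only a bound against WT, Chil3 has one in POKO alone, and Itgam, Cfd, Mrc1, Cd163 and Cd80 have none.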
